A study of Mus musculus with 9 samples.

Results

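Voltage-gated calcium channels open when a neuron depolarizes, and the pore of each channel is formed by a single large protein encoded by one of the Cacna1 genes. The 8 pore genes Cacna1a, Cacna1b, Cacna1c, Cacna1d, Cacna1e, Cacna1g, Cacna1h and Cacna1i were taken by name from the 37620 gene identifiers counted in the series, of which 15069 were tested. The 8 pore genes were all among the genes tested, and each exceeded 1 CPM in each of the 9 samples. CPM is the read count of a gene scaled to library size, here after TMM, a normalization between libraries. The samples were RNA bound to ribosomes of parvalbumin-expressing inhibitory neurons (PV INs) of hippocampal CA3/CA2, pulled down through an HA epitope on the ribosomal protein Rpl22. All mice carried PV-Cre and were homozygous for the Rpl22HA allele (Rpl22HA f/f), and were injected at 2 months of age. The tag was thus made in cells in which PV-Cre had acted. In 5 samples (shNT) the dentate gyrus (DG) had received a lentivirus with a non-target shRNA and GFP. In 4 samples (shRNA) it had received a lentivirus with an shRNA against Ablim3 and GFP, which the study used to increase mossy fiber input onto PV INs. CA3/CA2 was collected 2 weeks later and each sample was a pool of tissue from 6 mice of both sexes, so the spread between samples is a spread between pools. The comparison asks which calcium channel genes differ in ribosome-associated RNA of PV INs between these groups.

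The high-voltage-activated channels need a strong depolarization. Among them, P/Q type (Cacna1a) and N type (Cacna1b) channels sit at axon terminals and trigger transmitter release. PV basket cells are known to rely mainly on the P/Q type, and cholecystokinin basket cells on the N type. L type channels (Cacna1c and Cacna1d) are concentrated on somata and dendrites and couple calcium entry to gene transcription, and the R type (Cacna1e) contributes to dendritic calcium signals and to plasticity. The low-voltage-activated T type channels (Cacna1g, Cacna1h and Cacna1i) open near the resting potential and support rebound firing and bursts.

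The division into high- and low-voltage types is visible in the coding sequence of the pore. Calcium selectivity depends on a ring of acidic residues, with 1 residue from each of the pore loops. The third of these loops is shown here because its acidic residue separates the T type from all others. The following stretches of 39 bases are from transcripts of the GENCODE annotation on the mm9 genome, are written 5′ to 3′ on the coding strand, and have the codon of the acidic residue in capitals.
Cacna1a (P/Q type, chr8:87105210-87105248, plus strand, exon 27 of 47): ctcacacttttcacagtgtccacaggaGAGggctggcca
Cacna1b (N type, chr2:24506603-24506641, minus strand, exon 29 of 48): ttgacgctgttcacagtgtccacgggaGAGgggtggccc
Cacna1c (L type, chr6:118606133-118606171, minus strand, exon 26 of 47): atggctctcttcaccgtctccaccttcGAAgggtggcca
Cacna1d (L type, chr14:30913885-30913923, minus strand, exon 27 of 49): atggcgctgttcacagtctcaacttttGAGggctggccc
Cacna1e (R type, chr1:156292004-156292042, minus strand, exon 29 of 47): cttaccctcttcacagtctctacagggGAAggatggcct
Cacna1g (T type, chr11:94287776-94287814, minus strand, exon 24 of 38): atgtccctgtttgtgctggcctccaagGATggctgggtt
Cacna1h (T type, chr17:25520444-25520482, minus strand, exon 23 of 35): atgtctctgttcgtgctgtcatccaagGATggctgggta
Cacna1i (T type, chr15:80207210-80207248, plus strand, exon 24 of 37): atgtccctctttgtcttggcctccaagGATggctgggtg
The high-voltage genes carried GAG or GAA, both codons of glutamate, and the T type genes carried GAT, a codon of aspartate. Between 31 and 35 of the 39 bases were identical within the 3 pairs of T type genes, between 26 and 32 within the 10 pairs of high-voltage genes, and between 19 and 23 in the 15 pairs of one of each. Over whole protein-coding transcripts, 0% to 4.99% of the stretches of 50 bases, the length of a read, were also found in a protein-coding transcript of another gene. The share was highest for Cacna1d and 0% for Cacna1a, Cacna1b, Cacna1c and Cacna1e, so few reads could belong to more than 1 protein-coding gene. Noncoding transcripts were not searched.

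The 8 genes lie on different chromosomes of the mm9 genome and are long. Cacna1a (ENSMUSG00000034656) spans chr8:86912339-87164145, Cacna1b (ENSMUSG00000004113) chr2:24459407-24618672, Cacna1c (ENSMUSG00000051331) chr6:118542314-119146249 and Cacna1d (ENSMUSG00000015968) chr14:30853135-31304342. Cacna1e (ENSMUSG00000004110) spans chr1:156239649-156573049, Cacna1g (ENSMUSG00000020866) chr11:94269705-94335414, Cacna1h (ENSMUSG00000024112) chr17:25511230-25570728 and Cacna1i (ENSMUSG00000022416) chr15:80117668-80228709. Their exons sum to between 8.82 kb (Cacna1c) and 12.7 kb (Cacna1e), against a median of 3.62 kb for all genes tested. Exons of other genes overlap 5.54% of the exon bases of Cacna1d (Chdh), 3.81% of those of Cacna1a (Gm16183) and 1.61% of those of Cacna1h (Tpsg1). Because reads were counted without strand, reads there cannot be told apart.

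Reads counted on genes numbered 19680352 to 34578837 per sample in the shNT group and 18281719 to 30421093 in the shRNA group. A pore gene had between 37 reads (Cacna1g, shNT replicate 4) and 3139 reads (Cacna1a, shRNA replicate 1). The 12 markers of PV INs on the list used were all detected in every sample. Pvalb had 678 to 1375 CPM in the shNT samples and 310.0 to 705 CPM in the shRNA samples. Ablim3, whose knockdown took place in DG and not in the cells sequenced, had 12.1 to 22.6 CPM in the shNT samples and 13.7 to 21.7 CPM in the shRNA samples, so it is no check of the labels here. The share of uniquely aligned reads that fell outside annotated exons was highest in shRNA replicate 4 (27.2%) and, among shNT samples, in shNT replicate 2 (18.6%), against 9.76% to 11.3% in the other shNT samples and 12.4% to 19.8% in the other shRNA samples. The 19.8% was in shRNA replicate 1. Values without each of these samples are given after the single genes. Values without shNT replicate 2 or shRNA replicate 4 are also given beside the marker lists.

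Cacna1a, the P/Q type gene, had the highest level per exon length in every sample. In CPM per kb of exon, its level was 5.57 ± 1.30 (SD, n = 5) in the shNT samples, followed by Cacna1b with 1.90 ± 0.84, Cacna1d with 1.31 ± 0.38, Cacna1i with 1.21 ± 0.16 and Cacna1h with 1.09 ± 0.39. Cacna1e with 0.793 ± 0.603, Cacna1c with 0.578 ± 0.182 and Cacna1g with 0.424 ± 0.199 were lowest. Among neighbours in this order, only Cacna1a and Cacna1b had ranges over the 5 samples that did not overlap. In the shRNA samples Cacna1a again led with 7.21 ± 1.55 CPM per kb (SD, n = 4), followed by Cacna1b with 3.37 ± 0.75, Cacna1e with 2.40 ± 0.74, Cacna1h with 2.27 ± 0.44, Cacna1d with 1.96 ± 0.66, Cacna1i with 1.37 ± 0.28, Cacna1c with 1.16 ± 0.37 and Cacna1g with 0.709 ± 0.214. The R type gene Cacna1e thus stood at rank 6 in the shNT samples and at rank 3 in the shRNA samples. Again only Cacna1a and Cacna1b were neighbours with separate ranges. Summed over the 8 genes, the level per kb averaged 12.9 CPM (SD 3.86, n = 5) for shNT and 20.4 CPM (SD 3.30, n = 4) for shRNA, with shNT replicate 2 (18.9) above shRNA replicate 2 (16.4).

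**Figure D1:**
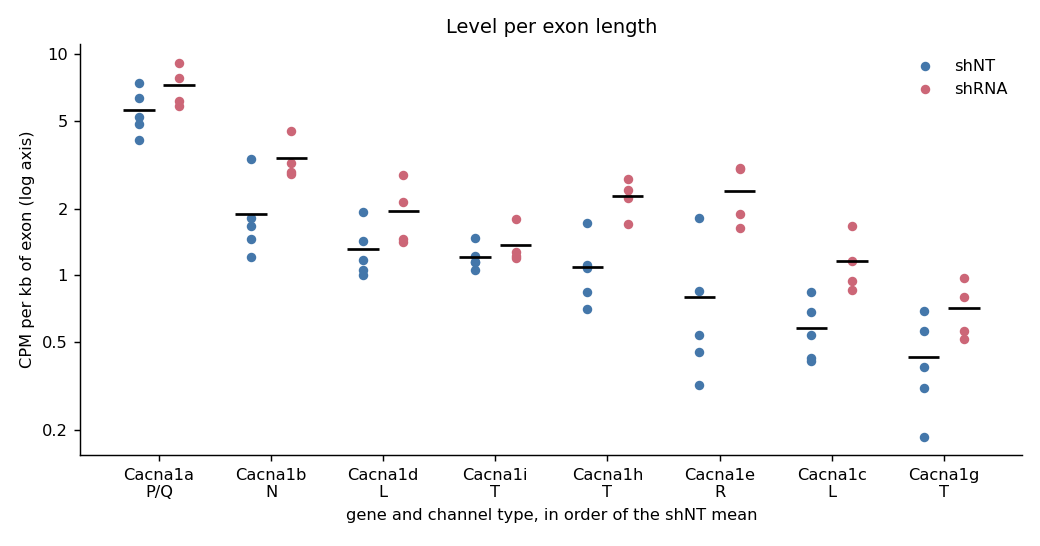
Level of each pore gene per exon length, in CPM per kb of exon on a log axis, with 1 point per sample (5 shNT samples in blue, 4 shRNA samples in red) and a line at the group mean. Genes are ordered by their shNT mean, and Cacna1a lies above every other gene in both groups, with means of 5.57 and 7.21.

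No pore gene was called different between the groups, and all 8 had a higher fitted level in the shRNA samples. Genes were compared by the quasi-likelihood test of edgeR, with a Benjamini-Hochberg false discovery rate (FDR) over all genes tested. A gene was called where the FDR was below 0.05 and the fold change 1.5 or more, a rule that 1.74% of all genes met in the higher and 0.0133% in the lower direction. Of the 8 pore genes 0 passed this rule, while 5 had an unadjusted p under 0.05, as did 20.7% of all genes tested in the higher direction. Cacna1b, Cacna1c, Cacna1e and Cacna1h passed 1.5-fold with an FDR under 0.1 (edgeR quasi-likelihood test), a looser rule that 12.7% of all genes passed in the higher and 4.26% in the lower direction. The median log2 fold change of the 8 genes was 0.79, beside 0.11 for all genes tested, of which 57.9% were positive. The pore genes are long, and at their exon lengths the trend over all genes tested was 0.47 to 0.59. In bulk RNA of this kind, fewer PV INs in a sample and less RNA per PV IN cannot be told apart.

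In shNT replicates 1 to 5, Cacna1a measured 72.2, 84.4, 59.5, 46.7 and 55.2 CPM, and in shRNA replicates 1 to 4 it measured 104, 69.7, 88.7 and 66.4 CPM. The groups overlapped, since shRNA replicates 2 and 4 lay within the shNT range. The shNT mean was 63.6 CPM (SD 14.8, n = 5) and the shRNA mean 82.3 CPM (SD 17.7, n = 4). The log2 fold change was 0.37 (95% interval -0.06 to 0.80, edgeR FDR = 0.201; exact two-sided permutation test of log2 CPM, p = 0.143), and its interval included 0.

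Cacna1b, the N type gene, had 17.9, 33.3, 14.5, 11.95 and 16.6 CPM in the shNT samples and 44.4, 28.6, 32.1 and 29.0 CPM in the shRNA samples. Only shNT replicate 2 reached the shRNA range, and the other shNT samples lay below every shRNA sample. The shNT mean was 18.9 CPM (SD 8.38, n = 5) and the shRNA mean 33.5 CPM (SD 7.44, n = 4), with a log2 fold change of 0.83 (95% interval 0.23 to 1.43, edgeR FDR = 0.0766, exact permutation p = 0.0397).

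Cacna1c, an L type gene, was the only one of the 8 genes whose groups did not overlap, a pattern that 8.97% of all genes tested showed in the higher and 6.68% in the lower direction. Its level was 6.01, 7.39, 4.73, 3.73 and 3.61 CPM in the shNT samples and 10.2, 7.57, 8.28 and 14.7 CPM in the shRNA samples. The gap between the groups was narrow, between shNT replicate 2 and shRNA replicate 2. The shNT mean was 5.09 CPM (SD 1.60, n = 5) and the shRNA mean 10.2 CPM (SD 3.23, n = 4), with a log2 fold change of 1.00 (95% interval 0.40 to 1.60, edgeR FDR = 0.0630, exact permutation p = 0.0159). Cacna1d, the other L type gene, had 13.3, 17.9, 9.81, 9.38 and 10.9 CPM in the shNT samples and 19.9, 13.2, 13.7 and 26.4 CPM in the shRNA samples. Its groups overlapped, with shNT replicate 2 above shRNA replicates 2 and 3. The shNT mean was 12.3 CPM (SD 3.52, n = 5), the shRNA mean 18.3 CPM (SD 6.20, n = 4), and the log2 fold change was 0.58 (95% interval 0.02 to 1.14, edgeR FDR = 0.138, exact permutation p = 0.0952).

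The R type gene Cacna1e had the largest difference of the 8 genes and the largest spread between shNT samples. Its level was 10.7, 23.0, 6.83, 4.04 and 5.71 CPM in the shNT samples and 38.3, 20.7, 24.0 and 38.7 CPM in the shRNA samples. All but 1 of the shNT samples lay well below the shRNA samples, and shNT replicate 2 lay above shRNA replicate 2. The shNT mean was 10.1 CPM (SD 7.66, n = 5) and the shRNA mean 30.4 CPM (SD 9.42, n = 4), a fitted fold of 3.03. The coefficient of variation in the shNT samples was 76.1%. The log2 fold change was 1.60 (95% interval 0.63 to 2.57, edgeR FDR = 0.0630, exact permutation p = 0.0238).

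The T type genes had log2 fold changes of 1.06 (Cacna1h), 0.74 (Cacna1g) and 0.18 (Cacna1i), and their differences from each other were not tested. Cacna1h had 10.9, 16.8, 10.5, 8.17 and 6.87 CPM in the shNT samples and 23.8, 16.6, 21.7 and 26.7 CPM in the shRNA samples, and only shNT replicate 2 and shRNA replicate 2 kept the groups from separating. The mean was 10.7 CPM (SD 3.82, n = 5) for shNT and 22.2 CPM (SD 4.26, n = 4) for shRNA. The log2 fold change of Cacna1h (95% interval 0.52 to 1.61, edgeR FDR = 0.0510, exact permutation p = 0.0238) had the lowest FDR of the 8 genes. Cacna1g, the least abundant of the 8 genes, had 5.58, 6.88, 3.09, 1.87 and 3.86 CPM in the shNT samples and 7.98, 5.15, 5.59 and 9.74 CPM in the shRNA samples. Its groups overlapped, with shNT replicate 2 above shRNA replicates 2 and 3 (means 4.26 and 7.12 CPM, 95% interval of the log2 fold change -0.04 to 1.52, edgeR FDR = 0.162, exact permutation p = 0.0873). Cacna1i had 14.5, 11.98, 11.3, 10.4 and 11.3 CPM in the shNT samples and 11.7, 12.5, 17.7 and 12.1 CPM in the shRNA samples. All shRNA samples but replicate 3 lay within the shNT range, and the shNT mean was 11.9 CPM (SD 1.54, n = 5), the shRNA mean 13.5 CPM (SD 2.79, n = 4; 95% interval of the log2 fold change -0.20 to 0.56, edgeR FDR = 0.461, exact permutation p = 0.325). Cacna1i was also the steadiest gene among shNT samples, with a coefficient of variation of 13.0%.

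**Figure D2:**
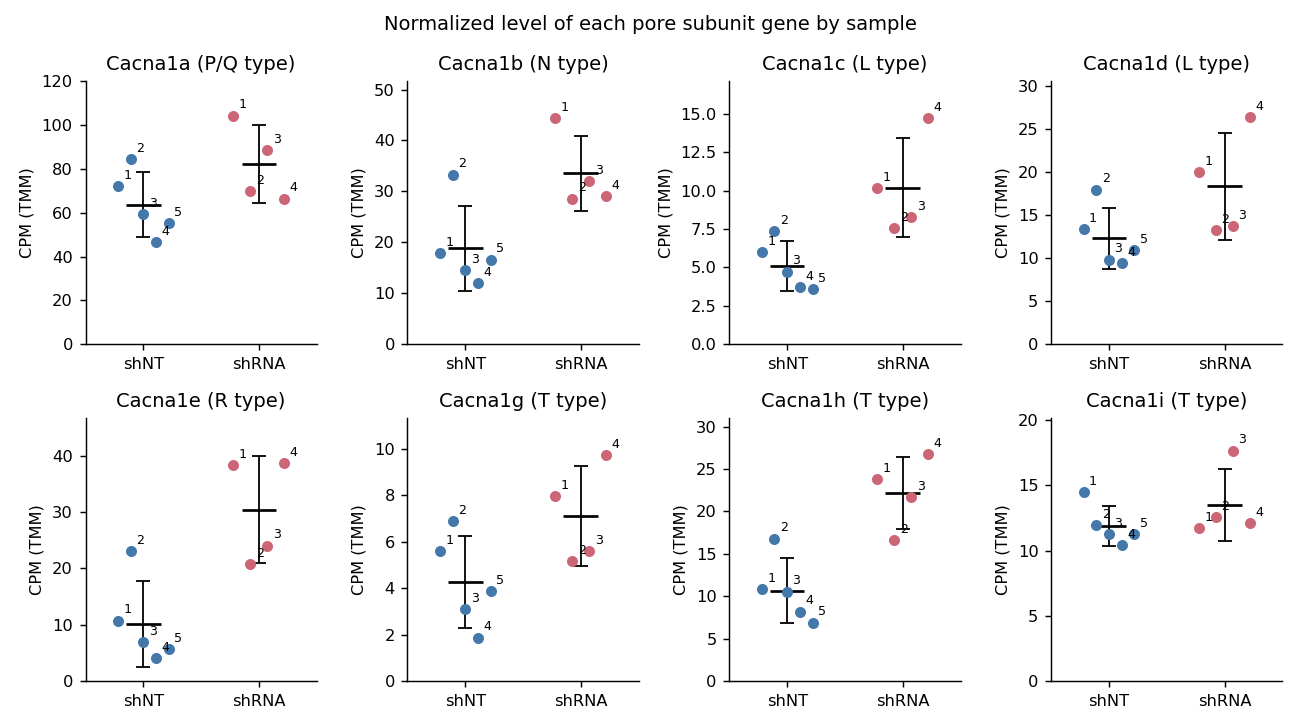
Normalized level of each pore gene in CPM (vertical axis, from 0) in 5 shNT samples (blue) and 4 shRNA samples (red), with the replicate number beside each point, a line at the mean and bars of 1 SD. shNT replicate 2 is the highest shNT sample in every gene except Cacna1i, and Cacna1c is the gene without overlap, at 3.61 to 7.39 CPM against 7.57 to 14.7 CPM.

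The calls depended on the test and on the samples included. With edgeR's likelihood ratio test, edgeR's exact test and DESeq2, Cacna1b, Cacna1c, Cacna1e and Cacna1h were called higher, beside 11.2%, 11.0% and 10.2% of all genes. With limma voom and sample quality weights these and Cacna1a and Cacna1g were called higher, beside 15.3% of all genes. Without shNT replicate 2, Cacna1b, Cacna1c, Cacna1e and Cacna1h were called by the quasi-likelihood test, beside 3.21% of all genes. Their log2 fold changes were then 1.14, 1.17, 2.15 and 1.29, with edgeR FDR values of 0.0426 to 0.0488. Without shRNA replicate 4 alone, 0 pore genes were called (edgeR FDR 0.118 or more). The log2 fold changes were then 0.74 for Cacna1c, 0.32 for Cacna1d, 0.52 for Cacna1g, 0.93 for Cacna1h and 1.41 for Cacna1e, all lower than with it, and 0.43 for Cacna1a, 0.86 for Cacna1b and 0.21 for Cacna1i, which were slightly higher. Cacna1b, Cacna1c, Cacna1e and Cacna1h were also called without shNT replicate 2 and shRNA replicate 4 together (4.75% of all genes), with log2 fold changes of 1.21, 0.95, 2.02 and 1.20. Cacna1h alone was called in 4 further settings: without shNT replicate 1 (6.68% of all genes), without shRNA replicate 2 (2.34%), with no filter on low counts (2.08%) and with the version 4 form of the quasi-likelihood test (2.59%). Without any one of shNT replicates 3, 4 and 5 or shRNA replicates 1 and 3, 0 of all genes were called. Without shRNA replicate 1 the log2 fold changes were 0.17 for Cacna1a and 0.59 for Cacna1b, their lowest values with any single sample left out. Cacna1d and Cacna1i were called in 0 of the 25 alternatives. Of these, library size only and upper quartile scaling also called 0 of all genes. So did a term for reads outside exons and the sample titles numbered 31 alone, both described below. Where 0 of all genes were called, the absence of a call says nothing particular about either gene.

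The share of reads outside exons, the set of sample names and exon length were each taken into account in turn. In a model with an added term for each sample's percentage of reads outside exons, the log2 fold changes were 0.30 for Cacna1a, 0.61 for Cacna1b, 0.59 for Cacna1c, 0.11 for Cacna1d, 1.09 for Cacna1e, 0.28 for Cacna1g, 0.77 for Cacna1h and 0.27 for Cacna1i, a median of 0.44. The sample titles fall into a set numbered 31 (6 samples, 3 of each group) and a set numbered 32 (shNT replicates 4 and 5 and shRNA replicate 4), and whether these are batches is not stated. Within set 31 the median of the 8 genes was 0.36, with 0.99 for Cacna1e, 0.66 for Cacna1h, 0.63 for Cacna1b and 0.48 for Cacna1c, and edgeR FDR values between 0.460 and 0.854. Set 32 held too few samples for its own value. With the set as a term in the model of all 9 samples, the median was 0.77, with 1.67 for Cacna1e, 1.07 for Cacna1h, 1.00 for Cacna1c and 0.79 for Cacna1b, and edgeR FDR values between 0.0527 and 0.555. Over all genes tested, the trend of log2 fold change on exon length reached 0.47 to 0.59 at the exon lengths of the pore genes, and after its subtraction the values were 1.01 for Cacna1e, 0.56 for Cacna1h, 0.53 for Cacna1c, 0.32 for Cacna1b, 0.23 for Cacna1g, 0.09 for Cacna1d, -0.18 for Cacna1a and -0.32 for Cacna1i. The median of the 8 genes after this subtraction was 0.28. Cacna1e remained the gene with the largest difference under each of these 4 settings.

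**Figure D3:**
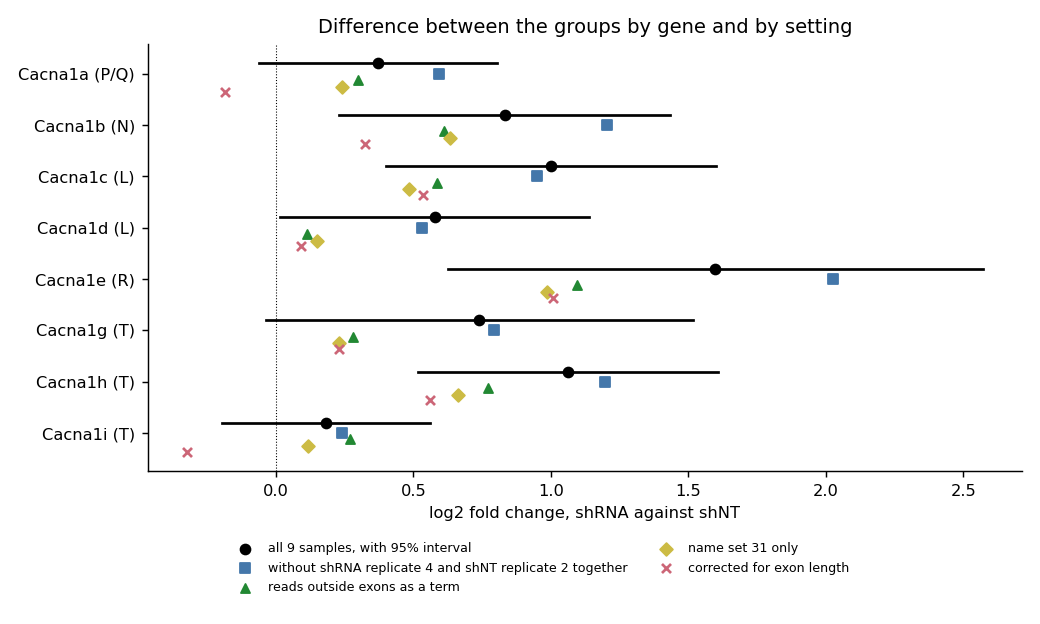
Difference between the groups for each pore gene as the log2 fold change of shRNA against shNT (horizontal axis), with the 95% interval for all 9 samples (black) and values under 4 other settings. The intervals of Cacna1b, Cacna1c, Cacna1d, Cacna1e and Cacna1h lie above 0, and correction for exon length puts Cacna1a at -0.18 and Cacna1i at -0.32.

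Markers of other cells were also mostly at a higher level in the shRNA samples. All 10 astrocyte markers had positive log2 fold changes (median 1.39), with a summed level of 1092 to 1562 CPM for shNT and 1452 to 5712 CPM for shRNA. In the same order of groups, 8 of 10 markers of CA3 and CA2 pyramidal neurons were positive (median 0.66, 800.04 to 1740 CPM against 1798 to 2233 CPM). Of 8 DG granule cell markers 6 were positive (median 0.70, 174 to 270 CPM against 284 to 309 CPM), of 8 oligodendrocyte markers 8 (median 0.78, 775 to 2406 CPM against 1470.2 to 3059 CPM), and of 6 oligodendrocyte precursor markers 5 (median 0.94, 69.3 to 103 CPM against 105 to 137 CPM). Of 9 markers of other interneurons 6 were positive (median 0.56, 544 to 919 CPM against 389 to 737 CPM), of 8 microglial markers 5 (median 0.21, 69.8 to 124 CPM against 107 to 123 CPM), and of 8 endothelial markers 7 (median 0.46, 139.8 to 329 CPM against 96.8 to 791 CPM). The 12 PV IN markers were all negative (median -0.35, 5302 to 8596 CPM against 3150 to 7596 CPM), and 0 of them was called (edgeR quasi-likelihood test, with 2 lower at an unadjusted p under 0.05). In the model with the term for reads outside exons, 8 of these 12 markers were positive and 4 negative (median 0.09). The 6 nuclear-retained RNAs were all positive (median 1.07), with 1671 to 15043 CPM in the shNT samples and 3643 to 19008 CPM in the shRNA samples. They were highest in shNT replicate 2 and shRNA replicate 4 of their groups, and shRNA replicate 1 was also high, with 13653 CPM. Called higher by edgeR's quasi-likelihood test were 3 markers of other interneurons, 2 of oligodendrocyte precursors, 1 of CA3 and CA2 pyramidal neurons and 1 of DG granule cells, and 0 of the other lists, in which 9 astrocyte, 7 oligodendrocyte, 3 microglial, 0 endothelial and 3 nuclear-retained genes were higher at an unadjusted p under 0.05. With the likelihood ratio test the markers called higher were 9 of astrocytes, 6 of pyramidal neurons, 5 of oligodendrocyte precursors, 4 of oligodendrocytes, 3 of DG granule cells, 3 of other interneurons, 2 of microglia, 0 of endothelial cells and 2 nuclear-retained RNAs, and 1 PV IN marker was called lower. In the same order, DESeq2 called 4, 5, 4, 3, 3, 3, 1, 0 and 0 higher, and limma voom with sample weights called 5, 8, 5, 8, 4, 6, 3, 0 and 1, each with 1 PV IN marker called lower. Of all 15069 genes, the likelihood ratio test, DESeq2 and limma voom called 11.2%, 10.2% and 15.3% higher and 542, 833 and 618 genes lower. The quasi-likelihood test called 1.74% higher, and at its unadjusted p under 0.05, 20.7% were higher and 2012 genes lower.

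The astrocyte and endothelial values rested on shRNA replicate 4. The summed astrocyte level was 1510, 1452 and 1716 CPM in shRNA replicates 1 to 3 and 5712 CPM in replicate 4. Without replicate 4 the astrocyte median was 0.43, with 9 of 10 markers positive and 5 higher at an unadjusted p under 0.05. The summed endothelial level was 170, 96.8 and 169 CPM in shRNA replicates 1 to 3 and 791 CPM in replicate 4, and without replicate 4 the 8 endothelial markers were all negative (median -0.91), 3 of them lower at an unadjusted p under 0.05, a count that limma voom with sample weights also gave on all 9 samples. With the set of sample names as a term, the endothelial median was 0.09. The median of the nuclear-retained RNAs was 0.43 without shRNA replicate 4, 1.80 without shNT replicate 2 and 1.19 without both. Without shRNA replicate 4 the median was 0.62 for pyramidal neurons, 0.64 for oligodendrocytes, 0.76 for oligodendrocyte precursors, 0.51 for DG granule cells, 0.47 for other interneurons, 0.18 for microglia and -0.18 for PV INs, and 1 pyramidal marker was called and 0 of the other markers (edgeR quasi-likelihood test). That fit called 142 of 14515 genes higher. Without shNT replicate 2, 6 oligodendrocyte markers were called higher, beside 3.21% of all genes. In the model with the term for reads outside exons, 0 of all 15069 genes were called, and so 0 markers. The nuclear-retained median was then 0.10 and the astrocyte median 0.42, and all 8 endothelial markers were negative (median -1.17). The medians of pyramidal neurons and oligodendrocytes were 0.55, of oligodendrocyte precursors 0.67 and of DG granule cells 0.59. Other interneurons had 0.46 and microglia 0.20. No marker counted was at 0 in any sample. Several of these cell types are known to express pore genes, and their part in the differences of the pore genes was not tested.

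The mixture of channel types was compared within each sample, where library scaling plays no part. As a share of the summed level per kb, the P/Q type took 44.5%, 39.1%, 46.1%, 44.8% and 44.9% in shNT replicates 1 to 5 and 37.6%, 37.3%, 39.1% and 27.4% in shRNA replicates 1 to 4. The R type took 5.93%, 9.59%, 4.75%, 3.49% and 4.18% in the shNT samples and 12.4%, 9.96%, 9.52% and 14.4% in the shRNA samples. In both types the groups overlapped only between shNT replicate 2 and shRNA replicate 3, and without shNT replicate 2 they were separate. The N type took 14.4% ± 2.17 (SD, n = 5) in the shNT samples and 16.5% ± 2.02 (SD, n = 4) in the shRNA samples. The L type took 14.7% ± 0.60 and 15.2% ± 4.09, with 21.2% in shRNA replicate 4. The T type took 21.4% ± 1.5 and 21.4% ± 2.35, with overlapping ranges.

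**Figure D4:**
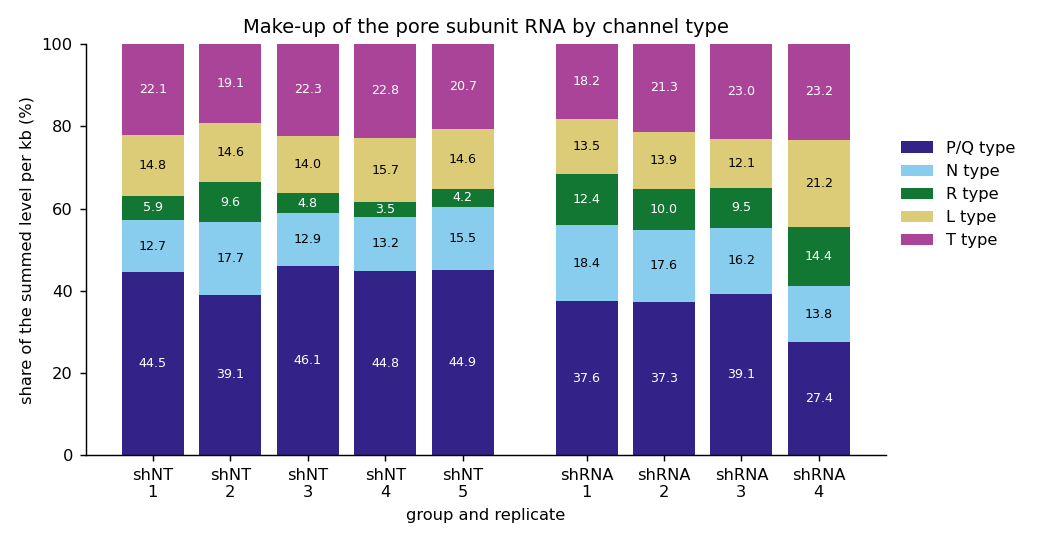
Make-up of the pore gene RNA in each of the 9 samples, as the share in percent of the summed level per kb of exon taken by P/Q, N, R, L and T type genes (stacked bars from 0 to 100). The P/Q share is 44.5% or more in all shNT samples but replicate 2 (39.1%), and 39.1% or less in the shRNA samples.

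The log2 ratio of Cacna1a to Cacna1b, P/Q against N type, was lower in the shRNA samples. It was 1.81, 1.14, 1.84, 1.76 and 1.53 in shNT replicates 1 to 5 and 1.03, 1.09, 1.27 and 0.99 in shRNA replicates 1 to 4, with only shNT replicate 2 inside the shRNA range. The means were 1.62 ± 0.29 (SD, n = 5) and 1.09 ± 0.12 (SD, n = 4), a difference of -0.52 (exact two-sided permutation test, p = 0.0238, Benjamini-Hochberg adjusted p over 3 ratios = 0.0357). Cacna1a thus exceeded Cacna1b per kb in every sample, by a smaller ratio in 4 of 4 shRNA samples than in 4 of 5 shNT samples.

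The log2 ratio of Cacna1d to Cacna1c, the L type pair, was also lower in the shRNA samples and did not overlap between groups. Among single genes, 8.97% did not overlap in the higher and 6.68% in the lower direction. How often ratios of other gene pairs do so is not given here. It was 1.06, 1.19, 0.96, 1.24 and 1.5 in the shNT samples and 0.89, 0.72, 0.64 and 0.75 in the shRNA samples, a difference of -0.44 (exact permutation p = 0.0159, adjusted p = 0.0357). The means were 1.19 ± 0.21 (SD, n = 5) and 0.75 ± 0.10 (SD, n = 4). The log2 ratio of the T type to all other pore genes was -1.88 ± 0.13 (SD, n = 5) in the shNT samples and -1.88 ± 0.21 (SD, n = 4) in the shRNA samples, a difference smaller than the spread between replicates (exact permutation p = 0.976, adjusted p = 0.976). When single samples were left out, the differences of the first and second ratio lay between -0.64 and -0.47 and between -0.50 and -0.37, and adjusted p values lay between 0.0429 and 0.0857 (exact permutation tests). They stayed below 0.05 only when the sample left out was shNT replicate 2. Within set 31 the differences were -0.47 and -0.33, where 3 against 3 samples cannot give a p below 0.1.

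**Figure D5:**
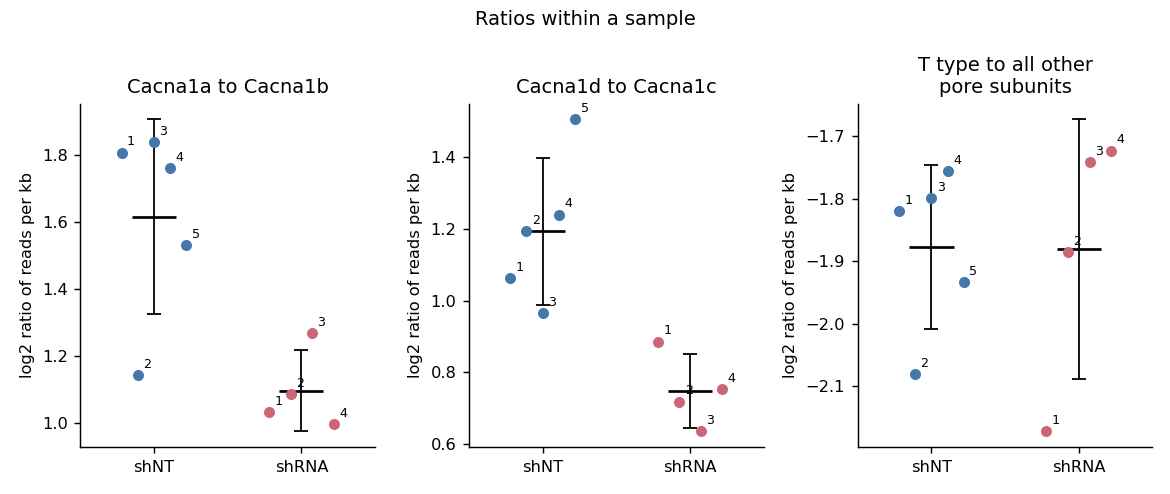
Log2 ratios of reads per kb within each sample for Cacna1a to Cacna1b, Cacna1d to Cacna1c, and T type genes to all other pore genes (vertical axes, which do not start at 0), with 5 shNT samples in blue, 4 shRNA samples in red, the mean and 1 SD. The shRNA samples lie below the shNT samples in the middle panel (0.64 to 0.89 against 0.96 to 1.5) and the groups overlap in the right panel.

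The pore genes varied together over the 9 samples to different degrees. Pearson's r of log2 CPM was 0.966 for Cacna1c and Cacna1h, 0.965 for Cacna1e and Cacna1h, 0.958 for Cacna1c and Cacna1e and 0.948 for Cacna1b and Cacna1e, and was lowest for Cacna1d and Cacna1i with 0.149. These values describe 9 samples that share 2 groups and the library differences given above, and no test was made of them. Cacna1i had r values of at most 0.531 with the other pore genes.

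Among 9489 other genes averaging at least 10 CPM, the 3 with the pattern most like each pore gene over the 9 samples were found by the same r. Cacna1e was most like the sodium channel gene Scn3a (r = 0.987), Ryr2, which encodes a calcium release channel of the endoplasmic reticulum (0.986), and Rapgef6 (0.984), and Cacna1h was most like Nav1, a neuron navigator gene (0.989), Scn3a (0.982) and Btaf1 (0.981). Cacna1c was most like Ptprk (0.995), Rfx3 (0.991) and Ahctf1 (0.990), and Cacna1d like Mll5 (0.991), Wbscr17 (0.991) and Nav2 (0.989). Cacna1a was most like Ksr1 (0.974), Shank3, a scaffold gene of excitatory postsynapses (0.964), and Wbp7 (0.963), and Cacna1b like Rnf182 (0.970), Zdbf2 (0.963) and Jmjd1c (0.960). Cacna1g was most like Chd3 (0.991), Abl2 (0.979) and Ptpn23 (0.977), whereas the closest genes to Cacna1i, which were Arid1a (0.933), Tmcc2 (0.893) and Sf3b1 (0.872), were less close.

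The remaining pore genes were nearly silent. Cacna1s, the L type gene of skeletal muscle, had 8 to 26 reads per sample (log2 fold change -0.16, edgeR FDR = 0.821), and Cacna1f, the L type gene of the retina, had 0 to 5 reads and was not tested. Of the 8 auxiliary subunit genes, which encode the alpha2delta and beta subunits that traffic and gate the pore, 0 was called (edgeR quasi-likelihood test) and 6 had positive log2 fold changes (median 0.40). At an unadjusted p under 0.05, 4 of them were higher (20.7% of all genes tested). With the likelihood ratio test 2 were called higher (11.2% of all genes), with DESeq2 1 (10.2%) and with limma voom 2 (15.3%). For Cacna2d1, whose product binds gabapentin, the shNT mean was 15.9 CPM (SD 5.68, n = 5) and the shRNA mean 32.9 CPM (SD 10.4, n = 4) without overlap, with a log2 fold change of 1.05 (edgeR FDR = 0.0608). Cacnb2 had a log2 fold change of 0.60 (FDR = 0.0559, edgeR) and Cacna2d4, at 0.548 CPM in the shNT samples, one of 0.45 (FDR = 0.407, edgeR). Of the 8 genes, 2 did not overlap between the groups, Cacna2d1 and Cacnb2, both in the higher direction (8.97% of all genes tested).

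Of the 12 genes for release-site partners, the proteins that tether calcium channels to vesicles or drive fusion, 0 was called (edgeR quasi-likelihood test), 7 were positive and 5 negative (median 0.19). At an unadjusted p under 0.05, 6 were higher (20.7% of all genes tested) and 1 lower (2012 of 15069 genes). The likelihood ratio test called 3 higher (11.2% of all genes). DESeq2 called 3 higher (10.2%) and 1 lower (833 genes of all tested), and limma voom called 4 higher (15.3%). The largest differences were in Erc2, an active zone scaffold (log2 fold change 1.40, edgeR FDR = 0.0503), in Rimbp2, which links the scaffold to the channels (0.83, FDR = 0.0803), and in the scaffold gene Bsn (0.77, FDR = 0.114). Erc2 ranged from 51.2 to 98.4 CPM in the shNT samples and from 118 to 341 CPM in the shRNA samples, so its groups did not overlap. In this list 3 genes did not overlap in the higher direction (Erc1, Erc2 and Unc13a) and 1 in the lower (Snap25). Over all genes tested the shares were 8.97% and 6.68%.

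Of 6 genes of calcium-activated potassium channels, which turn calcium entry into repolarizing current, Kcnn2 was called higher, as were 1.74% of all genes tested. In this list the likelihood ratio test called 2 genes higher (11.2% of all genes) and limma voom 3 (15.3%). DESeq2 called 2 higher (10.2%) and 1 lower (833 genes of all tested). For Kcnn2, a small-conductance channel, the shNT mean was 22.1 CPM (SD 5.46, n = 5) and the shRNA mean 43.6 CPM (SD 9.34, n = 4) without overlap, with a log2 fold change of 0.98 (edgeR FDR = 0.0433). It was called in 14 of the 25 alternatives, with log2 fold changes of 0.62 to 1.10 and adjusted p values of 0.00117 to 0.343 over edgeR, DESeq2 and limma. The call ended with library size only, upper quartile scaling, the replicate block, set 31 alone and the term for reads outside exons, and without any one of shNT replicates 3, 4 and 5 or shRNA replicates 1, 3 and 4. Of these settings, the replicate block called 29 of all genes and the fit without shRNA replicate 4 called 142. The others called 0 of all genes, so the loss there was not particular to Kcnn2. Kcnn3 had the largest log2 fold change of this list at 1.58 (FDR = 0.0708, edgeR), from a low level of 0.659 CPM in the shNT samples, and Kcnmb2, an auxiliary subunit of the large-conductance channel, had -0.55 (FDR = 0.0737, edgeR). In this list 2 genes did not overlap in the higher direction (Kcnn2 and Kcnn3) and 1 in the lower (Kcnmb2), beside 8.97% and 6.68% of all genes tested. Of 12 genes for calcium signalling to the nucleus, 0 was called (edgeR quasi-likelihood test) and 6 were positive (median 0.13), with 5 genes higher and 2 genes lower where an unadjusted p under 0.05 was enough, and 2 called higher by the likelihood ratio test. Over all genes tested, 20.7% were higher and 2012 of 15069 lower at that p, and the likelihood ratio test called 11.2% higher. DESeq2 called 2 genes of this list higher (10.2% of all genes) and limma voom 4 (15.3%). Camk2a, also on the list of pyramidal neuron markers, was at 0.76 (edgeR FDR = 0.0924), the CREB coactivator gene Crtc1 0.74 (FDR = 0.0661) and the kinase gene Camk2b 0.58 (FDR = 0.0854). The medians of these 4 lists lay between 0.13 and 0.40, against 0.79 for the 8 pore genes and 0.11 for all genes tested. These medians are not corrected for exon length, and the corrected median of the pore genes was 0.28.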

How the data were processed

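Reads of 50 bases from SMARTer v4 libraries were aligned by the authors with STAR (mm9 transcriptome). The authors deposited unstranded HTSeq 0.6.0 counts per gene and sample, which are raw and not normalized. The annotation they used is not given in the sources used here, and names, positions and exon lengths were taken from GENCODE M1 on the same build, which named 37205 of 37620 identifiers. Rows for reads that were outside exons, ambiguous or aligned to more than 1 place stayed out of the library sizes.

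Counts were analysed in R 4.3.3 with edgeR 4.0.16 (TMM, quasi-likelihood test in its version 3 form, condition as the only term), since the study names edgeR but not which test. A gene was tested if any sample reached 1 CPM, which left 15069 genes and removed 22551. The biological coefficient of variation was 0.303. Levels are TMM-scaled CPM, compared between genes only per kb of the union of exons, and log2 CPM uses a prior count of 2. Ratios are of reads per kb with 0.5 reads added, tested by exact two-sided permutation of the group labels. Pools were deposited as separate samples, and p-values measure the spread between these pools. Replicates of a group differed beyond sampling noise in every pair. Intervals cover the spread between samples, and at 37 or more reads per value counting error was small beside it for all but the lowest values.

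The 8 pore genes, the gene lists and the markers were chosen with earlier results of these data known. Named genes are the 8 pore genes, the 3 genes with the largest change and any called gene of each pathway list, and the 3 genes most like each pore gene. Lists are described by counts and medians, with no set test. On counts simulated from these samples in which 200 of 14534 genes differed 2-fold, 118 of these and 1 of 14334 unchanged genes were called by the quasi-likelihood test. The likelihood ratio test recovered 119 and DESeq2 124, whereas on the real counts these tests called many more genes than the quasi-likelihood test. Genes were simulated independently, without differences shared across the genes of a sample, so these counts need not hold for the real data. Alternatives were other tests (edgeR likelihood ratio and exact tests, DESeq2 1.42.0, limma 3.58.1 voom), normalizations, filters, a replicate block, the set of sample names, the share of reads outside exons, exon length and left-out samples. The version 4 form of the quasi-likelihood test and the alternatives for the lists and for Kcnn2 were added after seeing the data. The version 3 form, also counted as an alternative, is the same fit as the one reported.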

Additional observations from a re-analysis of the deposited data

Results flagged for a closer look

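Of 32 groups of values searched for a sample far from the others (log2 CPM of the 8 pore genes, the 3 ratios and the 5 type shares, each in both groups), 3 held one, against 1.6 expected by chance. shRNA replicate 3 had a log2 CPM of 4.15 for Cacna1i, against 3.56 to 3.66 in the other shRNA samples. shNT replicate 2 had a P/Q type share of 39.1%, against 44.5% to 46.1% in the other shNT samples. shRNA replicate 4 had a P/Q type share of 27.4%, against 37.3% to 39.1% in the other shRNA samples.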

How the results depend on the processing

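The log2 fold changes of the 8 pore genes stayed positive except in Cacna1i without shRNA replicate 3 (-0.054, range -0.054 to 0.26 over samples left out) and, after the correction for exon length, which has no test, in Cacna1a (-0.18) and Cacna1i (-0.32). Pore genes called numbered 4 with the likelihood ratio test, the exact test, DESeq2 and without shRNA replicate 4 and shNT replicate 2 together, 6 with limma voom, 1 (Cacna1h) with the version 4 form of the quasi-likelihood test and with no filter on low counts, and 0 to 4 with each sample left out in turn. Called were 4 without shNT replicate 2 and 1 (Cacna1h) without shNT replicate 1 or shRNA replicate 2. Over all genes, against 264 called, the counts were 2230.0 (likelihood ratio test), 2193 (exact test), 397 (version 4 form), 2365 (DESeq2), 2919 (limma voom), 515 (no filter), 680.0 (without both samples) and 0 to 1417 (each sample left out in turn). They were 0 with library size only, upper quartile scaling, set 31 alone or a term for reads outside exons. The same held without any one of shNT replicates 3, 4 and 5 or shRNA replicates 1 and 3. The causes of these changes were not tested. Whether samples with the same replicate number were processed together is not stated. The correlations of their deviations were -0.27, -0.64, 0.49 and -0.18. Samples of unlike number were not compared in this way, so these values cannot decide it. The replicate block called 29 genes, 0 of them pore genes. For Cacna1a to Cacna1b and Cacna1d to Cacna1c, the log2 ratio differences were -0.54 and -0.37 within replicate numbers (replicate block, adjusted p = 0.188, exact permutation), -0.47 and -0.33 in set 31 (adjusted p = 0.3) and -0.61 and -0.45 without both samples (adjusted p = 0.0857, exact permutation), where fewer samples allow fewer splits. With each sample left out in turn they ran from -0.64 to -0.47 and from -0.50 to -0.37, and that of the T type to all other pore genes from -0.055 to 0.095. Depth limits Cacna1f (0 to 5 reads) and, at 37 reads in 1 sample, Cacna1g.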
